A study of Mus musculus with 12 samples.

Results

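The T cell receptor is put together from gene segments, and RNA from 270 rows of the deposited table that carry a T cell receptor biotype (variable V, diversity D, joining J and constant C segments, with their pseudogenes) was examined in OT-I CD8 T cells. These rows were chosen by biotype alone, out of 55335 rows in the table. They comprised 178 V, 4 D, 80 J and 8 C rows, of which 44 were pseudogenes. By locus, 189 lay in the alpha, 53 in the beta, 11 in the delta and 15 in the gamma locus, and 2 V rows had a symbol that names no locus. Counts were present in 233 rows, and 37 rows were at 0 in all 12 libraries.

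CD8 T cells came from the spleen of TCR transgenic OT-I mice on the C57BL/6 background, so every group carried the transgenic receptor. The cells had been transduced with an empty vector (control) or a vector that expresses Batf3, a transcription factor of the AP-1 family, and successfully transduced cells had been sorted. A culture of 6 h followed. Stimulated cells met anti-CD3e and anti-CD28 antibodies fixed to the plate, each at 1 µg/ml, and non-stimulated cells were given IL-15 (100 ng/ml), which the labels name for those cultures alone. By the labels, antibodies and IL-15 thus changed together, and their effects cannot be told apart. Changes on or after stimulation below compare stimulated with non-stimulated cultures, both of 6 h, and not times of the same culture. The 4 groups were control non-stimulated, Batf3 non-stimulated, control stimulated and Batf3 stimulated, with 3 libraries each that the design text calls technical replicates. SDs, SEs and p-values therefore measure technical spread and say nothing about the spread between mice or transductions.

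During thymic development each T cell joins 1 V, 1 D and 1 J segment at the beta locus and 1 V and 1 J segment at the alpha locus, and the joined exon is spliced to the constant exons. Gamma and delta loci rearrange in the same way and encode the receptor of gamma delta T cells, while unrearranged segments can give sterile transcripts. OT-I cells carry an already joined receptor against an ovalbumin peptide, known by antibody staining as V alpha 2 and V beta 5, which are the Trav14 and Trbv12 families. In these counts, reads from the transgenes and from the cells' own loci cannot be told apart.

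Library totals ran from 14211564 to 14468231 counts, and receptor segments held between 0.18 and 0.29% of them. Levels below are CPM, that is counts scaled to a common library size with TMM factors, and 3 counts in 1 library stood for 0.191 to 0.228 CPM. The labelled cell type was matched by its defining markers, since Cd8a had group means between 554 and 747 CPM, Cd8b1 between 218 and 450 CPM and Cd3e between 93.2 and 173 CPM, while Cd4 had at most 0.321 CPM. Other genes listed as CD4 T cell markers, given further below, were not all low. In bulk RNA, fewer cells with a transcript and less of it per cell cannot be told apart.

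The V segments that carry the receptor are shown first, as the coding part of the V exon in GRCm38 (GENCODE M21, at most its first 300 bases), because the counts of near-identical copies depend on how far their sequences differ. All are on the plus strand, 5′ to 3′. Trbv12-1 lies at chr6:41113775-41114067 and Trbv12-2 at chr6:41119072-41119364, and capitals mark the 32 of 293 bases that differ between them.
Trbv12-1: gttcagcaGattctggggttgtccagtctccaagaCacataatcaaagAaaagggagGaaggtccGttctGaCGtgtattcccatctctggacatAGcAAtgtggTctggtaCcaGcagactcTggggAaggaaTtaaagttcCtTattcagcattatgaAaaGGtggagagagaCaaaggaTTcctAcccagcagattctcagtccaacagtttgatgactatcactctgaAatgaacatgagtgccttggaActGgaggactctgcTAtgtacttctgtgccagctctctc
Trbv12-2: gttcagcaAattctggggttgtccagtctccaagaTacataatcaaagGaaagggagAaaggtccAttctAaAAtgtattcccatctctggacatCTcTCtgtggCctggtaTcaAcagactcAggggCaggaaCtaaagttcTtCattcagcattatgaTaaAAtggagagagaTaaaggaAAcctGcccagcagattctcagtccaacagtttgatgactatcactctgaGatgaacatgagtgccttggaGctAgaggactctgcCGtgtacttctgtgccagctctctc
The stretch of Trav14d-1 lies at chr14:52855855-52856154 and that of Trav14d-2 at chr14:52948858-52949157. Capitals mark the 10 bases of Trav14d-2 that differ from Trav14d-1, which are all the differences in the whole exon of 312 bases.
Trav14d-1: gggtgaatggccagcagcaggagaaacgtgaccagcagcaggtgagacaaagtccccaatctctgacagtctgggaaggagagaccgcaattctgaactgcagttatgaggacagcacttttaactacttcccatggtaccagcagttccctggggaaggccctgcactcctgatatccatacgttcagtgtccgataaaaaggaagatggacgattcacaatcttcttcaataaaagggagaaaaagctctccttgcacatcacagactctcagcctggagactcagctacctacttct
Trav14d-2: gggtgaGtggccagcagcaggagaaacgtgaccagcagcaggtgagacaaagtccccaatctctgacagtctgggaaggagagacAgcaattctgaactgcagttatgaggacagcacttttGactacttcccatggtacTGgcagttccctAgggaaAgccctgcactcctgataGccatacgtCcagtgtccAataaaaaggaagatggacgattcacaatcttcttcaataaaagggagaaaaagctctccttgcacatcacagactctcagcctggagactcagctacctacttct
The V exon of Trav14n-1 was identical to that of Trav14d-1 in all 312 bases, and that of Trav14n-2 to that of Trav14d-2. The members of each identical pair had the same count in every library (3023 counts in all for Trav14d-1 and for Trav14n-1, and 989 for Trav14d-2 and for Trav14n-2). Of all receptor rows, 21 sets had equal counts throughout, though a few of these held a single count. Alpha V counts are therefore also given with such rows counted once, an alternative added after the data were seen.

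The transgenic families dominated both chains. On the beta side, Trbv12-1 (ENSMUSG00000095574) held 23341 of the 23603 counts of all beta V rows. Among Trbv counts, the Trbv12 family made up 99.3% ± 0.10 in control non-stimulated, 98.6% ± 0.11 in Batf3 non-stimulated, 99.0% ± 0.071 in control stimulated and 99.1% ± 0.40 in Batf3 stimulated libraries (SD, n = 3). The lowest single library had 98.5% and the highest 99.6%. Outside the family the 32 other beta V rows held 232 counts, led by Trbv13-2 with 141 (named after its values were seen). Trbv12-2, for all its similarity, had 29 counts and Trbv12-3 had 1.

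On the alpha side, the Trav14 family held 9092 of 11883 counts of alpha V rows. Its share of Trav counts was 80.6% ± 1.3 in control non-stimulated, 76.1% ± 2.3 in Batf3 non-stimulated, 72.8% ± 2.3 in control stimulated and 70.7% ± 6.8 in Batf3 stimulated libraries (SD, n = 3). With identical rows counted once these shares were 73.5, 68.1, 62.2 and 61.2%. The Batf3 stimulated libraries were spread most widely, at 78.4, 65.4 and 68.3%, with 95% Wilson intervals of 75.0 to 81.4, 61.4 to 69.2 and 64.6 to 71.8% that cover counting error only. The Trav14 share thus lay below the Trbv12 share in all 12 libraries.

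For each share, 4 comparisons of 3 against 3 libraries were tested by an exact two-sided permutation test, in which no p below 0.1 is possible. By this exact permutation test the Trav14 share was lower on stimulation with the control vector (p = 0.1, Benjamini-Hochberg adjusted p = 0.16 over 8 tests) without overlap. With the Batf3 vector the groups overlapped (exact permutation test, p = 0.4, adjusted p = 0.533). The Trbv12 share moved in opposite directions on stimulation, without overlap in either vector. It changed by −0.385 points with the control vector and by 0.517 points with Batf3 (exact permutation test, p = 0.1, adjusted p = 0.16 for each). A permutation of the culture labels within both vectors, chosen after these results were seen and applied to 20 differences in all, can go down to 0.005. By that exact test the Trav14 share was 6.59 percentage points lower in stimulated cells (p = 0.025, adjusted p = 0.0357). The Trbv12 share differed by 0.0659 points (exact permutation within vectors, p = 0.765), a mean over vectors in which it moved in opposite directions. For Batf3 against control, permuted within cultures, the same exact test gave −3.33 points for the Trav14 share (p = 0.15) and −0.275 points for the Trbv12 share (p = 0.15). In non-stimulated cells alone these differences were −4.56 and −0.726 points (exact permutation test, p = 0.1, adjusted p = 0.16 for each). The groups did not overlap there for either share. In stimulated cells alone they were −2.09 and 0.176 points (exact permutation test, p = 0.7 and 0.6).

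**Figure D1:**
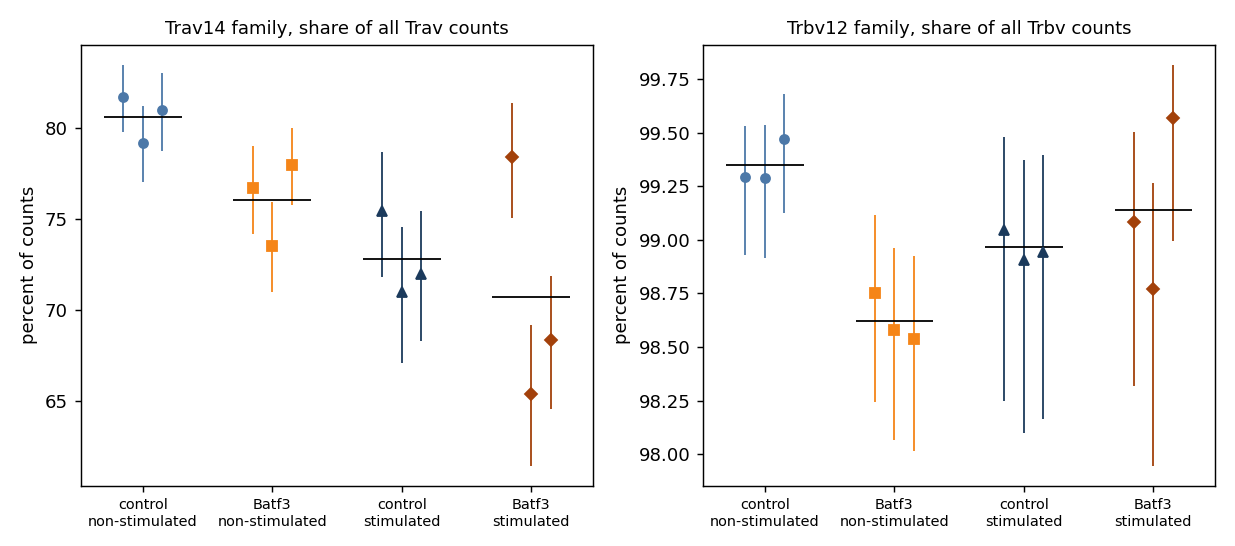
Share of all alpha V counts held by the Trav14 family (left) and of all beta V counts held by the Trbv12 family (right), in percent, for each of the 12 libraries by group, with 95% Wilson intervals as bars and the group mean as a line. The vertical axes do not start at 0: the left panel spans 65.4 to 81.7% and the right panel 98.5 to 99.6% between libraries.

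Constant segments took most of the signal. Of 409283 receptor counts in all libraries, Trbc2 held 172278, Trbc1 122626 and Trac 43301, which made 82.6% together. The 217 rows that did not pass the filter on low counts held 0.644%. Per kilobase of exon in control non-stimulated cells, Trbc2 stood at 1636 CPM, Trbc1 at 1099 CPM, Trbv12-1 at 500 CPM, Trac at 223 CPM, Trav14d-1 at 62.3 CPM, Tcrg-C1 at 42.1 CPM and Trdc at 23.5 CPM. Both beta constant genes were thus above the alpha constant gene per length. Trbc1 and Trbc2 are 95.56% identical in coding sequence (23 of 518 bases differ), so how reads were divided between them depends on the authors' counting.

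**Figure D2:**
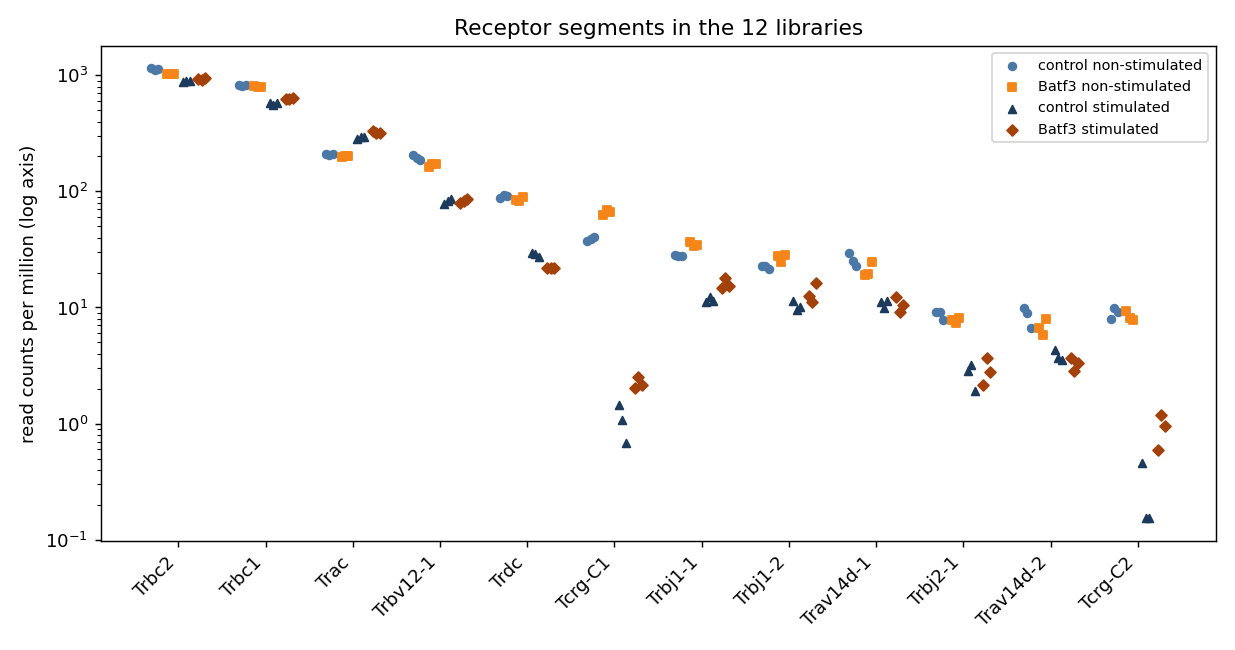
CPM (log axis) of 12 receptor segments with high levels in each of the 12 libraries, coloured by group. Trac lies higher in the stimulated libraries, while the other 11 segments lie lower in them within each vector, and the gamma constant genes Tcrg-C1 and Tcrg-C2 show the widest gaps.

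Of the 270 rows, 53 passed the filter on low counts (the CPM of 10 counts at the median library size, in 3 libraries) and were tested, and 49 of these had distinct counts. With the control vector, 38 of 53 fell and 2 rose (71.7 and 3.77%), where 80.3% of the 15702 genes tested were called, 40.7% falling and 39.6% rising (edgeR quasi-likelihood test, adjusted p under 0.05 over all genes). With the Batf3 vector, 39 fell and 2 rose (73.6 and 3.77%), against 41.4 and 41.2% of all genes, 82.7% in all. With identical rows counted once, 34 of 49 fell with the control vector and 35 with Batf3 (69.4 and 71.4%). A split by filter passage, made after the data were seen, shows that these counts lean on the filter, because 23 of the 53 reached the minimum in 3 libraries of the non-stimulated cultures alone, which all but fixes their direction. Of those 23, 17 and 18 fell (73.9 and 78.3%, control and Batf3 vector) and 0 rose, close to the 72.7 and 78.8% that fell and the 0.0784% that rose with either vector among all 1276 genes that passed in the same way. The 28 segments that reached the minimum in both cultures do not have this limit: 21 fell and 1 rose with either vector (75 and 3.57%), where 40.5 and 40.8% of the 13476 such genes fell and 41.1 and 42.7% rose. Their median log2 change was −0.93 and −0.75, beside 0.02 and 0.05 over such genes. They were Trbc1, Trbc2, Trac, Trbv12-1, Trbd1, all 14 beta J rows, 6 Trav14 rows (copies with equal counts included), Trav21-dv12, Trdc and Tcrg-C1. The row that rose was Trac. The other row that rose, Trav6d-3, passed the filter through stimulated libraries alone, so its call carries no weight. With raw library sizes in place of TMM the median of all genes moved by −0.19 and −0.21.

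Trac (ENSMUSG00000076928, chromosome 14, 54220521 to 54224206), the constant gene of the alpha chain, was the exception among the 8 constant genes. It had 3156, 3114 and 3154 counts in control non-stimulated, 3081, 3154 and 3124 in Batf3 non-stimulated, 3712, 3877 and 3893 in control stimulated and 4426, 4275 and 4335 in Batf3 stimulated libraries. All 6 stimulated libraries lay above all 6 non-stimulated ones. Trac rose by 0.48 ± 0.04 on the log2 scale with the control vector (SE, edgeR adjusted p = 2.3e-22) and by 0.69 ± 0.04 with Batf3 (adjusted p = 3.9e-30).

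Trbc2 (ENSMUSG00000076498, chromosome 6, 41546730 to 41548352) and Trbc1 (ENSMUSG00000076490, chromosome 6, 41538218 to 41539881), the constant genes of the beta chain, moved the other way. Trbc2 had 17293, 16946 and 17030 counts in control non-stimulated, 16271, 16076 and 15980 in Batf3 non-stimulated, 11562, 11654 and 11852 in control stimulated and 12554, 12244 and 12816 in Batf3 stimulated libraries. Stimulated libraries were lower without overlap. Trbc2 fell by 0.35 ± 0.03 (edgeR adjusted p = 4.4e-21) and 0.15 ± 0.03 (adjusted p = 5.0e-08) on the log2 scale, with control and Batf3 vector in that order. Trbc1 went from 823 ± 9.0 to 570 ± 13 CPM and from 798 ± 4.6 to 627 ± 6.9 CPM (SD, n = 3), a fall of 0.53 ± 0.03 and 0.35 ± 0.03 on the log2 scale. The share of Trbc counts from Trbc2 was higher by 3.19 percentage points in stimulated cells (exact permutation within vectors, p = 0.005, adjusted p = 0.00833, the smallest these permutations can give).

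With these opposite moves, Trac stood at 10.6 and 10.9 counts per 100 Trbc counts in non-stimulated control and Batf3 cells, and at 19.96 and 20.69 in stimulated ones. All 6 stimulated libraries lay above all 6 non-stimulated ones in this ratio (exact permutation within vectors, p = 0.005, adjusted p = 0.00833).

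Trbv12-1, from the V family of the transgenic beta chain, fell further than either beta constant gene. Which constant gene it was spliced to was not measured, so the ratio below takes both together. Trbv12-1 (chromosome 6, 41113550 to 41114067) had 3083, 2929 and 2803 counts in control non-stimulated, 2528, 2708 and 2685 in Batf3 non-stimulated, 1034, 1085 and 1125 in control stimulated and 1079, 1125 and 1157 in Batf3 stimulated libraries. It fell by 1.24 ± 0.04 (edgeR adjusted p = 8.6e-37) and 1.02 ± 0.04 (adjusted p = 2.6e-32) on the log2 scale. Per 100 counts of Trbc1 and Trbc2 there were 9.95 ± 0.43 and 9.24 ± 0.42 Trbv12-1 counts in non-stimulated control and Batf3 cells, and 5.64 ± 0.20 and 5.33 ± 0.16 in stimulated ones (SD, n = 3). Stimulated cells were lower by 4.11 (exact permutation within vectors, p = 0.005, adjusted p = 0.00833).

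Trav14d-1 fell while the constant gene of its chain rose. Trav14d-1 (ENSMUSG00000095854, chromosome 14, 52855614 to 52856166) had 446, 382 and 342 counts in control non-stimulated, 300, 304 and 389 in Batf3 non-stimulated, 147, 131 and 150 in control stimulated and 166, 124 and 142 in Batf3 stimulated libraries. Every stimulated library was below every non-stimulated one. It fell by 1.25 ± 0.12 (edgeR adjusted p = 1.0e-11) and 0.99 ± 0.12 (adjusted p = 3.4e-09) on the log2 scale. Per 100 Trac counts it stood at 12.4 and 10.6 in non-stimulated and at 3.73 and 3.31 in stimulated cells, for control and Batf3 in that order, a difference of −7.99 (exact permutation within vectors, p = 0.005, adjusted p = 0.00833).

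All 7 tested Trav14 rows fell in both vectors, where 40.7 and 41.4% of all genes tested fell (control and Batf3 vector). Trav14-1 passed the filter through non-stimulated libraries alone. Trav14d-1 and Trav14n-1 held equal counts, as did Trav14d-2 and Trav14n-2, so each such pair is a single result. Besides Trav14d-1 and its copy Trav14n-1 the 7 rows were Trav14d-2 and Trav14n-2 (−1.16 and −1.06), Trav14-3 (−1.27 and −0.55), Trav14d-3-dv8 (−1.38 and −0.76) and Trav14-1 (−3.31 and −2.15 on the log2 scale, control and Batf3 vector). In the Batf3 vector the call of Trav14-3 was lost in 5 of 19 alternatives, among them leaving out Batf3 non-stimulated replicate 1 or 3 or Batf3 stimulated replicate 2 or 3 (adjusted p up to 0.18). That of Trav14d-3-dv8 was lost without Batf3 non-stimulated replicate 3 (adjusted p = 0.105). Trav14-1 had 49 to 53 counts per group in non-stimulated cells but 0, 0 and 4 in control stimulated and 4, 6 and 0 in Batf3 stimulated libraries. The untested family rows Trav14-2 and Trav14n-3 held 50 and 32 counts.

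Alpha V rows outside Trav14 were few in counts, 2791 over 119 rows. Of the 12 tested, 9 passed the filter through non-stimulated libraries alone and 1, Trav6d-3, through stimulated ones alone, so their calls on stimulation are not counted here. Trav21-dv12 was the 1 row to reach the filter minimum in both cultures. It had 24, 26 and 21 counts in control non-stimulated, 23, 20 and 26 in Batf3 non-stimulated, 14, 12 and 9 in control stimulated and 9, 5 and 15 in Batf3 stimulated libraries. It fell by 0.81 ± 0.34 (edgeR adjusted p = 0.023) and 1.03 ± 0.36 (adjusted p = 0.0061) on the log2 scale. The first call was lost without control non-stimulated replicate 2 or control stimulated replicate 3 and with DESeq2 (adjusted p up to 0.106), and the second without Batf3 stimulated replicate 2 (0.0572). The row that rose, Trav6d-3 (named after its values were seen), had 0, 0 and 1 counts in control non-stimulated, 0, 2 and 2 in Batf3 non-stimulated, 13, 11 and 5 in control stimulated and 2, 12 and 8 in Batf3 stimulated libraries. No fold is given for it in the control vector because its non-stimulated level rests on 1 count.

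**Figure D3:**
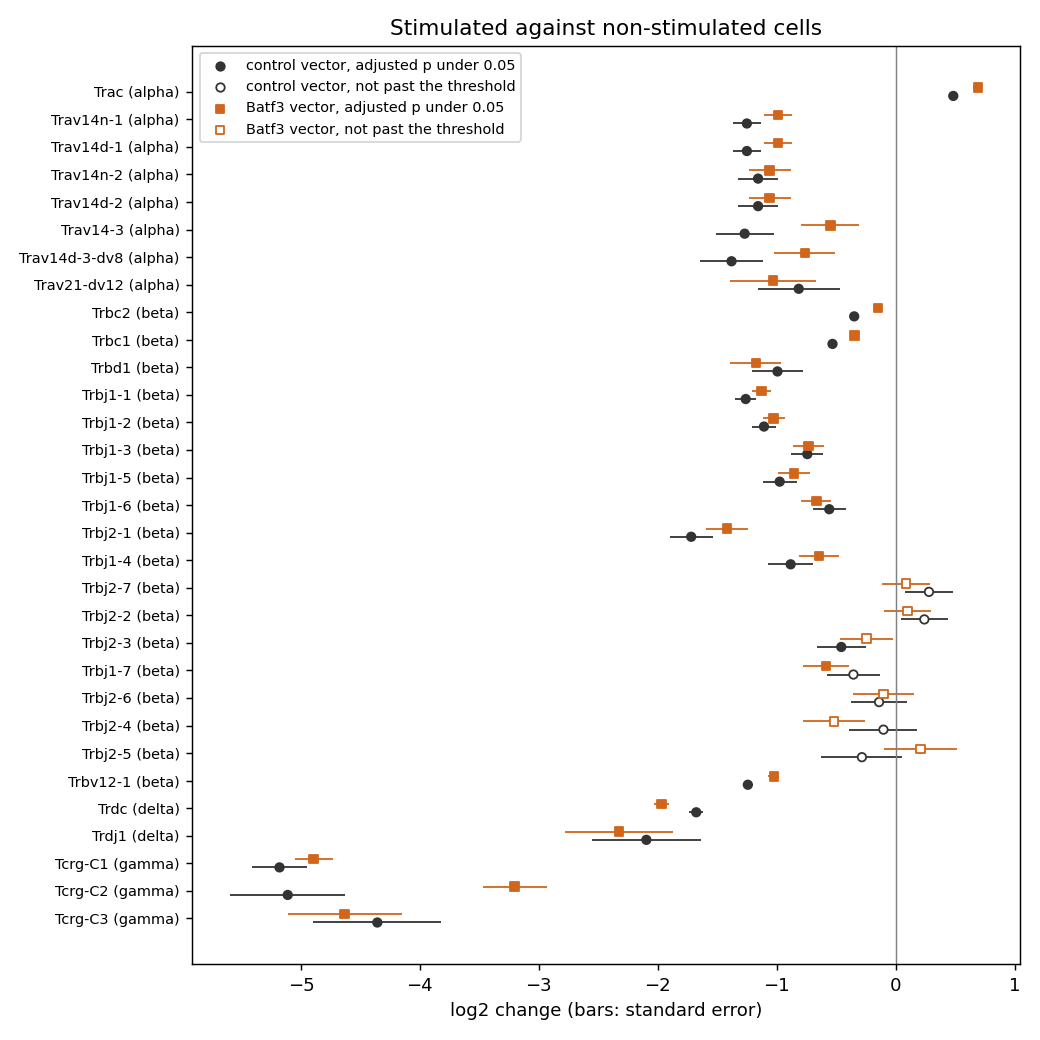
Log2 change from non-stimulated to stimulated cells, with SE, for the 31 tested segments with a mean of at least 1 CPM, by vector; filled symbols passed an edgeR adjusted p of 0.05. Trac lies right of 0, most beta, alpha and delta segments lie between −2 and 0, and Tcrg-C1, Tcrg-C2 and Tcrg-C3 lie at −3.2 or lower in both vectors.

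J segments join V or D to the constant region, and the beta locus holds them in 2 clusters, Trbj1 upstream of Trbc1 and Trbj2 upstream of Trbc2. These short segments had 16198 counts, 12641 of them in the Trbj1 cluster. Trbj1-1, the first of its cluster, and Trbj2-7, the last of the other (named after its values were seen), are shown because the first fell on stimulation and the other did not pass the test.
Trbj1-1: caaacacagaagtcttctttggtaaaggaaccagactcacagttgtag
Trbj2-7: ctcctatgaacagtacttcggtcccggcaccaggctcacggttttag
Trbj1-1 lies at chr6:41533864-41533911 and Trbj2-7 at chr6:41543810-41543856, both on the plus strand.

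Along the locus the highest counts were at the first segments of the Trbj1 cluster. Trbj1-1, 12819 bases upstream of Trbc2, had 28.0 ± 0.39 CPM in control non-stimulated cells and Trbj1-2 had 22.3 ± 0.67 CPM. Trbj1-3 to Trbj1-7 had 2.69 to 9.82 CPM there. In the Trbj2 cluster the first segment, Trbj2-1, was again the highest with 8.70 ± 0.77 CPM, and Trbj2-2 to Trbj2-7 had 1.24 to 4.04 CPM. The segments are of about equal length (46 to 54 bases), but the gaps between them differ. How reads over neighbouring segments were counted is not known, so levels along the array are comparable only in part.

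On stimulation the Trbj1 cluster fell as a group. Trbj1-1 had 428, 420 and 418 counts in control non-stimulated, 580, 527 and 537 in Batf3 non-stimulated, 147, 162 and 151 in control stimulated and 200, 241 and 208 in Batf3 stimulated libraries. Its 4 groups did not overlap. The fall was 1.26 ± 0.09 (edgeR adjusted p = 4.1e-21) and 1.13 ± 0.08 (adjusted p = 4.4e-21) on the log2 scale with control and Batf3 vector. Of the 7 Trbj1 rows, 6 fell with the control vector and all 7 with Batf3, where 40.7 and 41.4% of all genes tested fell. Trbj1-7 with the control vector had −0.35 ± 0.23 (edgeR adjusted p = 0.14). The other rows lay between −1.11 (Trbj1-2) and −0.56 (Trbj1-6) with the control vector.

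In the Trbj2 cluster, 2 of 7 rows fell with the control vector and 1 of 7 with Batf3, beside 40.7 and 41.4% of all genes tested. Trbj2-1 fell by 1.72 ± 0.18 (edgeR adjusted p = 4.7e-14) and 1.42 ± 0.18 (adjusted p = 2.3e-11) on the log2 scale. Trbj2-3 fell by 0.46 ± 0.20 with the control vector (adjusted p = 0.035), a call lost without control non-stimulated replicate 1, without control stimulated replicate 1 or 2, without the filter and with DESeq2 (adjusted p up to 0.167). Trbj2-7 had 49, 47 and 42 counts in control non-stimulated, 45, 43 and 56 in Batf3 non-stimulated, 42, 54 and 50 in control stimulated and 30, 57 and 45 in Batf3 stimulated libraries. Its groups overlapped and its log2 changes of 0.28 ± 0.20 and 0.09 ± 0.20 did not pass the test.

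The share of beta J counts from the Trbj1 cluster was 77.8 and 82.1% in non-stimulated control and Batf3 cells and 70.7 and 76.4% in stimulated ones, a difference of −6.41 percentage points on stimulation (exact permutation within vectors, p = 0.005, adjusted p = 0.00833). Trbj1 counts per 100 Trbc counts also fell with stimulation, from 4.36 and 5.68 to 2.94 and 3.51, for control and Batf3 in that order (exact permutation within vectors, p = 0.005, adjusted p = 0.00833). Trbd1, the D segment just upstream of the Trbj1 cluster, fell by 0.99 ± 0.21 and 1.18 ± 0.21 on the log2 scale (edgeR adjusted p = 2.1e-05 and 6.8e-07).

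**Figure D4:**
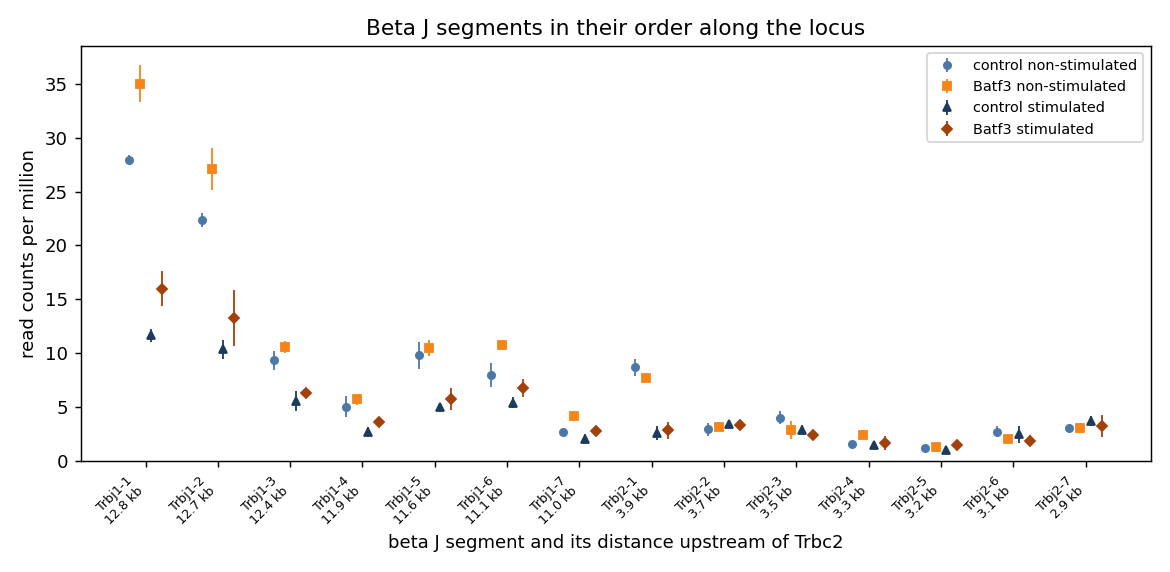
Mean CPM ± SD (n = 3 libraries) of the 14 beta J segments in their order along the locus, labelled with the distance upstream of Trbc2, by group. Trbj1-1 and Trbj1-2 are highest in all 4 groups, higher in Batf3 than in control cells and lower after stimulation, while most Trbj2 segments stay near 1 to 4 CPM.

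Alpha J segments carried little signal, with 936 counts over 60 rows. Traj33 (chromosome 14, 54185358 to 54185414) led with 93 counts and is shown as the highest of the array. Sequence, plus strand.
Traj33: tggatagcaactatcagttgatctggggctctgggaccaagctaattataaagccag
Traj33 had 15, 15 and 14 counts in control non-stimulated, 9, 2 and 4 in Batf3 non-stimulated, 7, 7 and 5 in control stimulated and 3, 3 and 9 in Batf3 stimulated libraries. It was high in control non-stimulated libraries alone, where it made up 21.6% ± 0.76 of alpha J counts, against 6.07% ± 4.6, 8.17% ± 2.2 and 5.96% ± 3.0 in the other groups (SD, n = 3). Because Traj33 passed the filter through control non-stimulated libraries alone, the filter favoured a higher level in that group, and no test is given for it.

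Among other alpha J rows, Traj58 had 5, 6 and 9, then 16, 16 and 10, then 5, 6 and 5, then 3, 3 and 1 counts in control non-stimulated, Batf3 non-stimulated, control stimulated and Batf3 stimulated libraries. It passed the filter through Batf3 non-stimulated libraries alone, so no test on it is given for stimulation. Traj49 and Traj41 had 69 and 49 counts in all and were not tested. The last 20 segments of the array (Traj21 to Traj1), nearest to Trac, had 17 counts in control non-stimulated, 52 in Batf3 non-stimulated, 68 in control stimulated and 81 in Batf3 stimulated libraries. The first 20 (Traj61 to Traj42) had 108, 140, 90 and 68. These sums are a description of few counts and were not tested.

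Gamma and delta segments, which OT-I cells do not need for their receptor, were present in non-stimulated cells. They made up 5.62% of receptor counts in control non-stimulated and 6.90% in Batf3 non-stimulated cells, and 1.63 and 1.32% in stimulated ones. Of 6 gamma and 6 delta rows tested, Tcrg-C1 and Trdc alone reached the filter minimum in both cultures. The other 5 of each locus passed through non-stimulated libraries alone, so the direction of their calls on stimulation was set by the filter and their values below are a description.

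Tcrg-C1 (ENSMUSG00000076749, chromosome 13, 19214103 to 19217024), a constant gene of the gamma chain, had 565, 587 and 610 counts in control non-stimulated, 985, 1084 and 1040 in Batf3 non-stimulated, 19, 14 and 9 in control stimulated and 27, 34 and 29 in Batf3 stimulated libraries. No groups overlapped. Its log2 change was −5.18 ± 0.23 (edgeR adjusted p = 1.0e-42) with the control and −4.89 ± 0.16 (adjusted p = 2.0e-47) with the Batf3 vector. Per 100 Trbc counts, Tcrg-C1 went from 1.99 and 3.63 to 0.0731 and 0.143.

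The other gamma constant genes also had lower counts in stimulated cells, from lower levels in non-stimulated ones, and passed the filter through non-stimulated libraries alone. Tcrg-C2 (chromosome 13, 19304649 to 19307551) had 120, 151 and 139, and 147, 128 and 123 counts in non-stimulated control and Batf3 libraries, and 6, 2 and 2, and 8, 16 and 13 in stimulated ones. It fell by 5.11 ± 0.49 and 3.20 ± 0.27 on the log2 scale, given as a description. Tcrg-C3 (19260884 to 19263528) fell by 4.36 ± 0.54 and 4.63 ± 0.48, and Tcrg-C4 (19344558 to 19352756) by 1.85 ± 0.49 with the control vector. In Batf3 cells Tcrg-C4 went from 17, 34 and 24 counts to 2, 0 and 0. Coding sequences of Tcrg-C2 and Tcrg-C3 are 97.4 and 96.89% identical to that of Tcrg-C1 and that of Tcrg-C4 78.71%, so counts may be shared among the first 3.

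Gamma J and V rows had few counts. Trgj1 had 13, 17 and 10 counts in control non-stimulated, 28, 17 and 24 in Batf3 non-stimulated, 1 in each control stimulated and 0 in each Batf3 stimulated library. In Batf3 cells it was at least 19.8-fold lower after stimulation, with a floor of 3 counts over the group. Trgv2 had 4, 13 and 12, then 5, 9 and 11 counts in non-stimulated control and Batf3 libraries, and 1, 0 and 0, then 4, 4 and 5 in stimulated ones. The untested rows Tcrg-V5, Trgj2, Tcrg-V3, Tcrg-V1 and Trgj4 had 31, 25, 9, 8 and 8 counts.

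Trdc (ENSMUSG00000104876, chromosome 14, 54142851 to 54148868), the constant gene of the delta chain, which lies within the alpha locus, had 1320, 1414 and 1374 counts in control non-stimulated, 1332, 1302 and 1401 in Batf3 non-stimulated, 386, 378 and 355 in control stimulated and 296, 293 and 300 in Batf3 stimulated libraries. It fell by 1.68 ± 0.06 (edgeR adjusted p = 2.8e-37) and 1.97 ± 0.06 (adjusted p = 4.5e-40) on the log2 scale. Per 100 Trac counts it went from 43.6 and 43.1 to 9.76 and 6.82, for control and Batf3 in that order (exact permutation within vectors, p = 0.005, adjusted p = 0.00833). Trdc has a long annotated exon set, so that per kilobase it had 23.5 CPM in non-stimulated and 7.34 CPM in stimulated control cells.

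The delta J rows Trdj1 (−2.10 and −2.33 on the log2 scale) and Trdj2 (−1.95 and −1.84) and the V row Trdv2-2 (−2.84 and −3.11) fell in both vectors. Trdv5 had −1.29 and −2.002, and Trdv1 −0.69 and −0.93. All 5 passed the filter through non-stimulated libraries alone. Trdv4 and Trdd2 had 64 and 27 counts and were not tested.

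Markers of gamma delta T cells moved in both directions. Of 8 genes reported from the list, 6 were found in the table by symbol and 4 were tested. The symbols Trgc1 and Trgc2 were not found, so the sum leaves out the gamma constant genes, which stand above as Tcrg-C1 and Tcrg-C2. The summed level of the 6, Trdc included, was 97.9 to 105 CPM in control non-stimulated and 101 to 103 CPM in Batf3 non-stimulated libraries. It was 29.4 to 31.7 CPM in control stimulated and 24.7 to 25.4 CPM in Batf3 stimulated ones. With the control vector 3 fell (Trdc, Cd163l1 and Sox13) and 1 rose (Blk), where 40.7% of all genes tested fell and 39.6% rose. Cd163l1 had 9.54 CPM in control non-stimulated and 14.7 CPM in Batf3 non-stimulated cells, and 0.203 and 0.445 CPM in stimulated ones. Blk went from 0.177 to 1.57 CPM with the control vector and from 0.149 to 2.02 CPM with Batf3. Of the 4 tested, Cd163l1 and Sox13 passed the filter through non-stimulated and Blk through stimulated libraries alone. Il23r and Zbtb16 had at most 0.383 CPM in any group. The part of other cells in the gamma and delta counts was not tested.

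Between vectors in non-stimulated cells, 9 of the 53 segments were lower and 6 higher in Batf3 cells, where 39.3% of all genes tested were called, 23.0% lower and 16.3% higher. With identical rows counted once, 7 of 49 were lower and 6 higher (14.3 and 12.2%). The median log2 change was 0.05, beside −0.02 over all genes. DESeq2 was run on 32686 genes with counts, without the edgeR filter but with its default filtering on mean counts and outlying counts. It called 14.5% of them and kept 6 of these 15 segment calls, those of Trbc2, Trbv12-1, Tcrg-C1, Trbj1-1, Trbj1-6 and Traj33. Traj33 passed the filter through control non-stimulated libraries alone, so its call carries no weight. The count was 8 without Batf3 non-stimulated replicate 2 and 9 without control non-stimulated replicate 1.

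The largest rise among these calls was that of Tcrg-C1, from 38.9 ± 1.4 to 66.2 ± 3.3 CPM (SD, n = 3), higher by 0.77 ± 0.06 on the log2 scale (edgeR adjusted p = 2.2e-17). Per 100 Trbc counts it was higher in Batf3 cells in both cultures, by 0.852 on average (exact permutation within cultures, p = 0.005, adjusted p = 0.00833). Tcrg-C3 was higher by 0.55 ± 0.16 (edgeR adjusted p = 0.0048), while Tcrg-C2 (−0.09 ± 0.13), Tcrg-C4 (0.29 ± 0.31) and Trdc (−0.08 ± 0.05) did not pass the test.

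The Trbj1 cluster was the other group with higher counts, with 4 of 7 called, where 16.3% of all genes tested were higher. Trbj1-1 was higher by 0.32 ± 0.07 (edgeR adjusted p = 6.2e-05), Trbj1-2 by 0.28 ± 0.08 (0.0042), Trbj1-6 by 0.43 ± 0.12 (0.0022) and Trbj1-7 by 0.62 ± 0.19 (0.0057) on the log2 scale. DESeq2 lost the calls of Trbj1-2, Trbj1-7 and Tcrg-C3 (adjusted p of 0.0709, 0.0557 and 0.0868). No Trbj2 row was higher by the test, and Trbj2-3 was lower by 0.48 ± 0.20 (edgeR adjusted p = 0.045), a call lost in 13 of 19 alternatives, 9 of which left out 1 library (adjusted p up to 0.287). Permuted within cultures, the Trbj1 share of beta J counts was 5.03 percentage points higher in Batf3 cells (exact p = 0.005, adjusted p = 0.00833).

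The transgenic V segments were lower in Batf3 cells. Trbv12-1 fell from 195 ± 9.5 to 169 ± 6.8 CPM (SD, n = 3), by 0.21 ± 0.04 on the log2 scale (edgeR adjusted p = 4.7e-06), and Trbc2 fell by 0.14 ± 0.03 (adjusted p = 1.4e-06). Trbc1 (−0.05 ± 0.03, adjusted p = 0.13) and Trac (−0.06 ± 0.04, adjusted p = 0.11) did not pass the test. Of 7 tested Trav14 rows 5 passed, where 23.0% of all genes tested were lower, but the copies with equal counts are not separate results. They were Trav14d-1 with −0.29 ± 0.10 (edgeR adjusted p = 0.018), Trav14d-2 with −0.33 ± 0.14 (0.049997), their copies Trav14n-1 and Trav14n-2 with the same values, and Trav14-3 with −0.52 ± 0.20 (0.034). None of these 5 calls was kept throughout: the call of Trav14d-1 was lost in 6 of 19 alternatives (among them without control non-stimulated replicate 1 or Batf3 non-stimulated replicate 1 or 2), that of Trav14d-2 in 15 and that of Trav14-3 in 7, with adjusted p up to 0.149, 0.311 and 0.306.

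In stimulated cells, 8 of the 53 segments were higher and 2 lower with Batf3, where 29.5% of all genes tested were called, 14.8% higher and 14.6% lower. The median log2 change was −0.03, beside 0.00 over all genes. Of the 8 constant genes, 7 were called. Trac went from 291 ± 7.7 to 322 ± 6.4 CPM (SD, n = 3), higher by 0.14 ± 0.04 on the log2 scale (edgeR adjusted p = 9.3e-05), and Trbc1 was higher by 0.14 ± 0.03 (adjusted p = 7.8e-06). Trbc2 was higher by 0.06 ± 0.03 (adjusted p = 0.04), a call lost in 14 of 19 alternatives, 10 of which left out 1 library (adjusted p up to 0.581).

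Tcrg-C1 was again higher, by 1.05 ± 0.27 (edgeR adjusted p = 9.0e-04), now from 1.06 to 2.22 CPM, and Tcrg-C2 by 1.81 ± 0.54 (adjusted p = 0.0023) from 0.254 to 0.912 CPM. Trdc was lower by 0.37 ± 0.07 (adjusted p = 1.2e-05). Trbj1-1 was higher by 0.46 ± 0.10 (adjusted p = 9.3e-05) and Trbj1-2 by 0.36 ± 0.11 (adjusted p = 0.01), the latter lost without control stimulated replicate 2 or Batf3 stimulated replicate 3 and with DESeq2 (adjusted p up to 0.26). Trbv12-1 differed by 0.01 ± 0.05 (adjusted p = 0.88), and none of the 7 Trav14 rows passed the test. The remaining calls, Trgv2 higher and Tcrg-C4 lower, rest on a group with 1 and a group with 2 counts and were not kept throughout. That of Trgv2 was lost without control stimulated replicate 2 or 3 (adjusted p up to 0.0704), and that of Tcrg-C4 without Batf3 stimulated replicate 2 or 3 and with DESeq2 (adjusted p up to 0.0872).

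The Batf3 effect differed between stimulated and non-stimulated cells for 9 of the 53 segments (edgeR interaction), 6 in the positive and 3 in the negative direction, where 20.7% of all genes tested were called, 14.6% positive and 6.08% negative. Trbc1, Trbc2, Trac, Trbv12-1, Tcrg-C2 and Trgv2 were the positive ones and Trdc, Tcrg-C4 and Traj58 the negative ones. Tcrg-C2, Trgv2, Tcrg-C4 and Traj58 passed the filter through non-stimulated libraries alone, Traj58 through those of Batf3 cells alone. The filter thus favoured a negative difference for Traj58, and its call carries no weight in these counts.

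**Figure D5:**
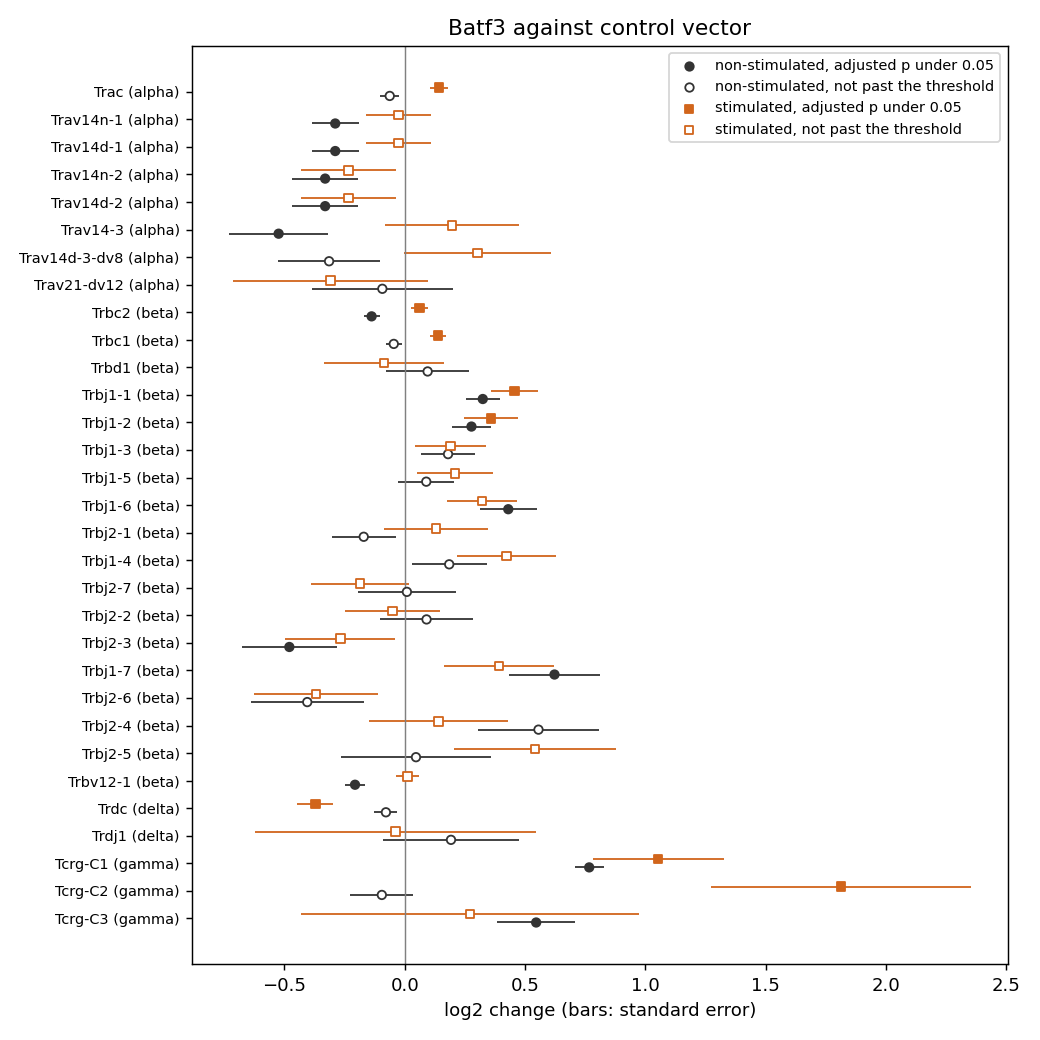
Log2 difference of Batf3 from control cells, with SE, for the same 31 segments in non-stimulated and stimulated cells; filled symbols passed an edgeR adjusted p of 0.05. Tcrg-C1, Trbj1-1 and Trbj1-2 lie right of 0 and filled in both cultures, while Trbv12-1 and the Trav14 rows filled in non-stimulated cells are open in stimulated ones.

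Genes that work with the receptor, from lists drawn up with earlier results of these data known, gave a background for these changes. The CD3 chains, which carry the signal of the receptor, and the CD8 coreceptor fell on stimulation in 6 of 6 tested genes with either vector. Of all genes tested, 40.7% fell with the control and 41.4% with the Batf3 vector. Cd3g went from 252 ± 5.4 to 72.6 ± 1.9 CPM and Cd3d from 225 ± 6.7 to 90.2 ± 0.45 CPM with the control vector (SD, n = 3). In stimulated cells all 6 were higher with Batf3, Cd247 (the zeta chain) by 0.85 ± 0.04 on the log2 scale (edgeR adjusted p = 2.4e-28) and the other 5 by 0.12 to 0.21. Over all genes tested, 14.8% were higher with Batf3 in stimulated cells. In non-stimulated cells 3 were lower and 1 (Cd8b1) higher, where 23.0% of all genes tested were lower and 16.3% higher. Ptcra and Cd4 were too low to be tested.

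Of 11 transcription factors known to bind enhancers of the receptor loci, 10 fell and 1, Runx1, rose with the control vector, and 8 fell and 1 rose with Batf3. Over all genes tested, 40.7% fell and 39.6% rose with the control vector, and 41.4 and 41.2% with Batf3. Ets1 went from 424 ± 7.0 to 129 ± 4.4 CPM, Tcf7 from 253 ± 6.5 to 66.7 ± 1.8 CPM and Tcf3 from 136 ± 4.0 to 22.03 ± 1.9 CPM in control cells (SD, n = 3). Between vectors, 4 were higher and 2 lower in non-stimulated Batf3 cells and 8 higher and 2 lower in stimulated ones. Among all genes tested, 16.3% were higher and 23.0% lower in the former, and 14.8 and 14.6% in the latter. Gata3 was higher by 0.71 ± 0.06 and 0.98 ± 0.07 on the log2 scale (edgeR adjusted p = 1.1e-15 and 1.1e-18). Whether these factors have a part in the segment counts was not tested.

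The enzymes of V(D)J recombination gave few counts. Rag2, without which the recombinase does not work, was at 0 in all 12 libraries. Rag1 went from 0.133 to 2.16 CPM with the control vector (log2 change 3.94 ± 0.77) and from 0.0853 to 2.49 CPM with Batf3 (4.73 ± 0.92). It passed the filter through stimulated libraries alone, so these values are a description. Dntt had 0.839 CPM or less in every group.

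Genes beside the loci moved in various ways, 1 of 5 tested rising and 3 falling with the control vector, and 1 rising and 2 falling with Batf3. Among all genes tested, 39.6% rose and 40.7% fell with the control vector, and 41.2 and 41.4% with Batf3. Dad1, next to Trac, rose by 0.71 ± 0.05 on the log2 scale in both vectors (edgeR adjusted p = 3.7e-20 and 4.1e-20). Ephb6, near the beta locus, fell by 2.15 ± 0.26 and 1.94 ± 0.22, and Stard3nl, near the gamma locus, had 0.03 ± 0.08 and −0.09 ± 0.09, which did not pass the test.

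Antibody segments, the counterpart in B cells, gave a comparison. Of 432 immunoglobulin rows, 60 had counts and 3 were tested (Ighm, Igha and Ighd). All 3 fell on stimulation with either vector, where 40.7 and 41.4% of all genes tested fell (control and Batf3 vector). Ighd passed the filter through non-stimulated libraries alone, which all but fixes its direction. Ighm, the constant gene of IgM, went from 361 ± 6.4 to 50.5 ± 1.9 CPM with the control vector and from 395 ± 8.3 to 38.3 ± 2.4 CPM with Batf3 (SD, n = 3), a log2 change of −2.84 ± 0.05 and −3.37 ± 0.05. Igha was higher in Batf3 cells in both cultures, by 0.62 ± 0.07 and 1.28 ± 0.18 on the log2 scale (edgeR adjusted p = 3.7e-11 and 5.9e-09). Among B cell markers Ms4a1 and the light chain constant gene Igkc were at 0 in all libraries, and Pax5 had at most 0.0637 CPM and Cd22 at most 0.309 CPM in any group. Cd79b, a chain of the B cell receptor complex, had 2.98 and 4.47 CPM in non-stimulated control and Batf3 cells and 0.482 and 0.469 CPM in stimulated ones. Its log2 change was −2.61 ± 0.46 and −3.23 ± 0.45. Cd79b passed the filter through non-stimulated libraries alone, so these values are a description. Cd79a, the partner of Cd79b, had 0.583 to 0.962 CPM in the 4 groups and did not pass the test on stimulation with either vector. The part of B cells in the immunoglobulin counts was not tested. The summed level of the 7 B cell markers reported, Ighm included, was 358 to 372, 391 to 409, 49.4 to 53.8 and 38.1 to 42.4 CPM in control non-stimulated, Batf3 non-stimulated, control stimulated and Batf3 stimulated libraries.

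Of the other marker lists, Ncr1 and Klra8 (natural killer cells), Lyz2 (myeloid cells) and Rag2 (thymocyte precursors) were at 0 in all libraries. In the natural killer list Eomes, which CD8 T cells also express, made up most of the summed level of 325 to 337, 151 to 155, 44.9 to 47.0 and 38.9 to 41.1 CPM in the 4 groups, given in the order above. Klrb1c of that list was not absent, with 3.03, 0.788, 0.735 and 0.863 CPM in control non-stimulated, Batf3 non-stimulated, control stimulated and Batf3 stimulated cells. The CD4 T cell list summed to 103 to 109, 197 to 206, 33.5 to 36.6 and 317 to 329 CPM in the same order. Cd4 had at most 0.321 CPM of it, while Ctla4 had 89.9, 166, 8.34 and 252 CPM. Of its 4 tested genes, 4 were higher with Batf3 in non-stimulated and 3 in stimulated cells, where 16.3 and 14.8% of all genes tested were. The CD8 list summed to 1512 to 1529, 1457 to 1484, 1152 to 1158 and 1289 to 1318 CPM, and the myeloid list to 16.0 to 17.9, 29.1 to 30.3, 27.4 to 30.1 and 58.0 to 60.9 CPM. Of 3 myeloid genes tested, 3 were higher with Batf3 in non-stimulated and 2 in stimulated cells, among them Itgax with 8.30, 15.6, 17.6 and 43.7 CPM in the 4 groups. The thymocyte list reached 3.93 CPM at most.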

How the data were processed

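Read counts of 12 libraries were taken from the deposited table, in whole numbers per Ensembl gene. Per the labels, polyadenylated RNA from 100 ng of total RNA was made into stranded libraries with 15 PCR cycles. The authors aligned reads to GRCm38 with STAR 2.7 and counted them with featureCounts, per the submitters' processing notes. The handling of reads with several matches, like strand setting and annotation release, was not given in the sources used here, so counts of near-identical or overlapping segments are uncertain. Since PCR copies were not marked by molecular identifiers, reads are not independent molecules, and intervals and floors cover counting error only.

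Counts were fitted in R 4.3.3 with edgeR 4.0.16 (TMM, filterByExpr, 15702 genes, 4 group means over all 12 libraries, robust quasi-likelihood, 8 residual degrees of freedom, two-sided tests, Benjamini-Hochberg adjustment over all genes tested, called under 0.05), after tests on simulated data. The interaction is the Batf3 effect in stimulated minus that in non-stimulated cells. SEs come from the fit's information matrix and are never below counting error. Alternatives were DESeq2 1.42.0, other scalings and filters, a replicate block, only the groups compared, and leaving out each library. Shares and ratios were tested by exact permutation over libraries. All 270 rows matched GENCODE M21, which gave coordinates and sequences.

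Named segments were all constant genes, Trav14 and Trbv12 rows with counts, rows with 5% of the counts of their class or 5 CPM, and up to 5 further called changes per direction at 1 CPM or more. The members, lists and this rule were chosen with earlier results of these data known. Genes withheld for evaluation are left out of the marker lists. No libraries of a group agreed within sampling noise.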

Additional observations from a re-analysis of the deposited data

Results flagged for a closer look

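The effect of Batf3 differed between the cultures for 9 of the 53 segments tested (edgeR interaction, adjusted p under 0.05), 6 with a positive and 3 with a negative difference on the log2 scale, where 14.6% and 6.08% of all genes tested had one. Beta and alpha chain genes were among the positive ones: Trbc2 with 0.20 ± 0.05 (adjusted p = 2.7e-06), Trbc1 with 0.18 ± 0.05 (3.2e-05), Trac with 0.21 ± 0.05 (1.6e-04) and Trbv12-1 with 0.22 ± 0.06 (0.0035). Each of these was lower in Batf3 cells or did not pass the test without stimulation, and was higher or did not pass it with stimulation. Without control stimulated replicate 1, Trbv12-1 had an adjusted p of 0.0835.

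Trdc had −0.29 ± 0.09 (edgeR adjusted p = 0.0052), with 90.7 and 85.9 CPM in non-stimulated and 28.4 and 21.9 CPM in stimulated control and Batf3 cells. Tcrg-C2 had 1.91 ± 0.55 (adjusted p = 0.0028), resting on 6, 2 and 2 counts in control stimulated libraries. Tcrg-C2 and the remaining 3 passed the filter on low counts through non-stimulated libraries alone, and Traj58 through those of Batf3 cells alone, where it is high. The filter favoured a negative difference for Traj58, so its value is a description and its call carries no weight among the 9. The remaining 3 rest on few counts: Tcrg-C4 with −2.94 (edgeR adjusted p = 0.018), Traj58 with −2.20 and Trgv2 with 3.54 (0.023). The call of Tcrg-C4 was lost without Batf3 stimulated replicate 2 or 3 and with DESeq2 (adjusted p up to 0.0773), and that of Traj58 in 10 of 18 alternatives. That of Trgv2 was lost in 4 of 18, among them without control non-stimulated replicate 2 or control stimulated replicate 2 or 3 (up to 0.099).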

How the results depend on the processing

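Of 147 values recomputed for the counts of called segments and the family shares, 138 kept their side or stayed within the spread between libraries, 9 moved and 0 reversed. With DESeq2 the calls in non-stimulated Batf3 against control cells were 6 in place of 15. That fit took in 32686 genes, 233 of them segments, without the edgeR filter, and called 14.5% of them. Its default filtering on mean counts and outlying counts was left on, so some of these genes may have had no adjusted p. By comparison, edgeR without the filter made 13 segment calls and called 17.6% of all genes. Leaving out 1 library gave 8 to 17 calls there. With segment length taken into account, the Trav14 share was 78.9, 74.0, 70.6 and 68.4% and the Trbv12 share 99.3, 98.5, 98.9 and 99.1% in control non-stimulated, Batf3 non-stimulated, control stimulated and Batf3 stimulated cells. With identical rows counted once, an alternative added after the data were seen, the Trav14 share was 73.5, 68.1, 62.2 and 61.2% in the same order.

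Of 100 calls of named segments, 74 were kept under all alternatives, 26 were lost under at least 1 and 0 reversed. Segments with a few counts per library, above all alpha J and gamma V rows, are limited by depth.

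Replicate numbers did not pair the libraries: of 18 same-numbered pairs, 0 had a correlation of deviations over 0.1 (−0.0485 to 0.0333), and 3 of 12 libraries correlated best with their own number. With the replicate block the calls were 13 and 10 for Batf3 in non-stimulated and stimulated cells, 40 and 41 for stimulation with control and Batf3 vector, and 9 for the interaction, beside 15, 10, 40, 41 and 9 without it.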
